A study of Homo sapiens with 16 samples.

Results

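Metallothioneins are small zinc-binding proteins, and the genes described here are 8 of them, MT1A, MT1E, MT1F, MT1G, MT1H, MT1M, MT1X and MT2A, together with the zinc exporter gene SLC30A1 and the zinc-sensing transcription factor gene MTF1. They were followed in HCC70 and MDA-MB-468 cells, both basal-like lines grown out of human breast cancers. A gene was measured by a transcript cluster, the array's set of probes for 1 transcript unit, that the platform annotation gives exactly 1 symbol, and by the cluster with the highest mean over the 16 arrays where it had several. By that rule 9 of the 10 genes were measured, among 18417 genes with such a cluster in the series, and MT1A was not analysed here. The genes were chosen by the treated minus control changes that an earlier look at these same arrays had shown, so the values below describe them and are no independent evidence of their direction. Of the 9 genes, 8 reached a log2 signal of 6 on at least 2 arrays and were tested, and MT1H stayed below that floor on every array.

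There were 8 groups of 2 arrays each, and every line had been stably infected with virus and selected with puromycin. For all arrays alike, infection used polybrene at 6 µg/ml, and selection came 48 hours after infection with puromycin at 1 µg/ml. Cells were seeded 24 hours before RNA extraction. HCC70 cells carried an shRNA against EZH2 (shEZH2), an shRNA against EED (shEED) or a vector with EZH2 cDNA, which the labels call fip EZH2. Their controls were scrambled shRNA set a, scrambled shRNA set b and the empty plKO Puro vector. MDA-MB-468 cells carried shEZH2 or a scrambled shRNA. EZH2 is the enzyme of Polycomb repressive complex 2, which represses genes by methylating histone H3, and EED is a core subunit of that complex. The series gives each treatment its own control but does not say which scrambled set belongs to which knockdown, so set a was taken for shEZH2 and set b for shEED from the blocks of sample codes, and both choices were compared. Whether a line is 1 clone or a pool, and whether duplicates came from separate cultures, was not stated. The p-values therefore measure only the spread between these arrays, which may be technical. Signals come from the RNA of a whole culture, so more expressing cells and more RNA per cell cannot be told apart.

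Metallothioneins are short proteins rich in cysteine that hold zinc and copper and also capture cadmium. MTF1 binds metal response elements in DNA when free zinc rises, and metallothionein genes and SLC30A1 are its textbook targets. SLC30A1, also called ZnT1, sits in the plasma membrane and moves zinc out of the cell. Stress hormones and oxidants can also raise metallothionein RNA in many cell types. The metallothionein genes lie side by side on chromosome 16, where RefSeq (GRCh38.p14) lists 16 of them, pseudogenes included, between 56565073 and 56684196, a stretch of 119.1 kb that holds all 8 metallothioneins named above. SLC30A1 lies on chromosome 1 between 211571568 and 211579161, and MTF1 on the same chromosome between 37809574 and 37859592.

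The metal response element is where MTF1 would act, so the 250 bases before the annotated gene start are shown for MT2A, MT1X and SLC30A1. The sequences are RefSeq's (GRCh38.p14), 5′ to 3′ on the gene's own strand. RefSeq's promoter table held 5 of the 10 genes. Capitals mark every match to TGCACNC or TGCGCNC, the core letters of the element, on either strand, and no matches overlapped in these windows.
MT2A: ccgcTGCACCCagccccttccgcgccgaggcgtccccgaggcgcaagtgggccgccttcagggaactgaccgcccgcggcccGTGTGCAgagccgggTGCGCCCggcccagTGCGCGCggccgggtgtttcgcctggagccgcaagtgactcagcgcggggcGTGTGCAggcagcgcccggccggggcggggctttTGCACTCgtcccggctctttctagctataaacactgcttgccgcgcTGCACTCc
MT1X: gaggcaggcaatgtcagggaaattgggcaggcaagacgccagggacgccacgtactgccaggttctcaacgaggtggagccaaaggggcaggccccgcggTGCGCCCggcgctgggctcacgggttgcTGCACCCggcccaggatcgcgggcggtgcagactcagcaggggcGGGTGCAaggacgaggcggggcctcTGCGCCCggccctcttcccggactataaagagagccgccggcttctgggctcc
SLC30A1: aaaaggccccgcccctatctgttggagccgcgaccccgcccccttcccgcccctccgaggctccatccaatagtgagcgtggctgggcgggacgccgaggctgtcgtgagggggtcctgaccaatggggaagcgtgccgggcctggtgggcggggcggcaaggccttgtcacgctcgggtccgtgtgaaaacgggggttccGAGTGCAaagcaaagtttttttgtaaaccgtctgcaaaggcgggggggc
These windows are chr16:56608334-56608583 on the plus strand for MT2A, chr16:56682220-56682469 on the plus strand for MT1X and chr1:211579162-211579411 on the minus strand for SLC30A1. MT2A held 7 matches, 5 of them on the gene's own strand. MT1X held 4 matches and MT1H, at chr16:56669564-56669813 on the plus strand, held 8. Both MT1X and MT1H had a match between 78 and 72 bases and another between 53 and 47 bases before the start. SLC30A1 held 1 match, on the opposite strand between 49 and 43 bases before the start. No match was in the MTF1 window. Over all 35116 RefSeq promoters cut to the same window, 24.829% held at least 1 match, 0.37% at least 4 and 0.051% at least 6. A match describes the letters and is no measured binding site.

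**Figure D1:**
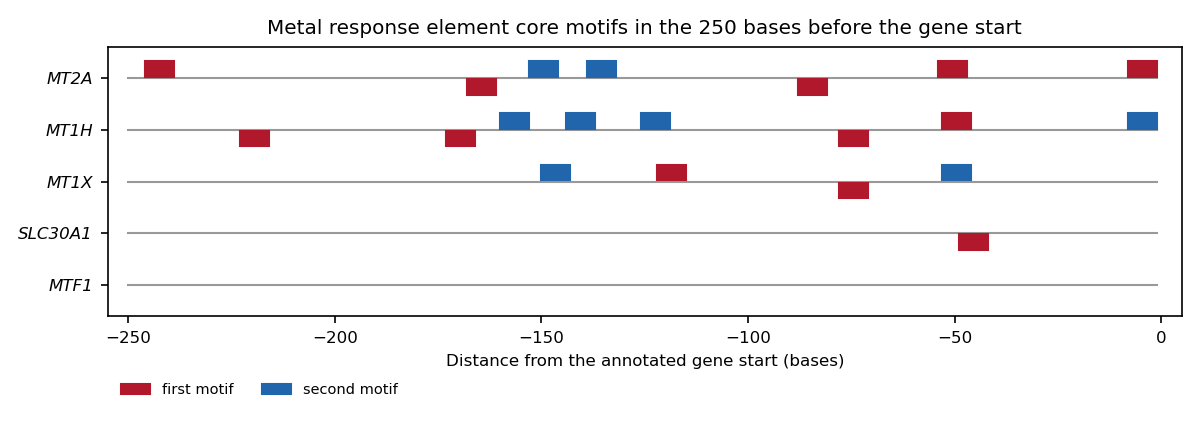
Matches to the metal response element core in the 250 bases before the annotated gene start (x axis, bases from the start) of 5 genes; red boxes are TGCACNC (first motif), blue boxes TGCGCNC (second motif), and boxes above the line lie on the gene's own strand. MT2A has 7 boxes, MT1H 8, MT1X 4, SLC30A1 1 and MTF1 none.

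Array medians ran between 5.37 and 5.53, and between 43.1% and 44.5% of all 33297 clusters reached log2 6. Changes below are differences of log2 signal with the standard error (SE) of limma, n = 2 arrays per group, and a gene was called at an adjusted p under 0.05 (limma, Benjamini-Hochberg over 16175 tested clusters). EZH2 changed by -1.47 ± 0.071 in HCC70 shEZH2 cells and by -1.68 ± 0.071 in MDA-MB-468 shEZH2 cells against their scrambled controls (adjusted p = 3.35e-07 and 2.56e-07), and EED changed by -0.82 ± 0.11 (adjusted p = 0.000347) in shEED cells. EED itself differed by -0.38 ± 0.11 (adjusted p = 0.0219) between scrambled sets, set b minus set a, so the size of its shEED change depends on the assigned set. EZH2 was also lower in shEED cells than in set b, by a change of -0.24 ± 0.071 (adjusted p = 0.0456). The EZH2 cluster differed by 0.29 ± 0.071 (adjusted p = 0.0961) in cells with EZH2 cDNA, which misses the threshold, and whether its probes lie in the cDNA was not checked. Basal and epithelial markers matched the label, with KRT5 between 12.53 and 13.14 on every array. Of the receptors listed as low beforehand, ESR1 and PGR reached log2 6 on 0 arrays. ERBB2, also listed as low, went the other way and lay between 6.91 and 8.23. Of 9 measured markers of leukocytes, endothelium and fibroblasts, 8 stayed below 6 and COL1A1 lay between 6.29 and 7.56.

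In HCC70 shEED cells 7 of the 8 tested genes were higher than in scrambled set b and 0 were lower, where 6.63% of all tested clusters were called higher, 7.53% lower and 14.2% either way. The median change of the 8 genes was 0.87, against 0.024 over all tested clusters. MT1M rose 8.25-fold and MT1E 2.63-fold, and SLC30A1 rose 1.73-fold with them. MTF1 had a change of 0.007 ± 0.12 (adjusted p = 0.981). Knockdown of EZH2 in HCC70 was accompanied by 5 higher genes of 8, all metallothioneins, and 0 lower ones relative to set a, where 7.3% of clusters were called higher, 4.06% lower and 11.4% either way. MT1M, MT1E, MT1G, MT2A and MT1F were those 5, and the median over the 8 was 0.52 against 0.008 over all tested clusters. MT1M, MT1G, MT1E and MT1F changed more under shEED than under either shEZH2 knockdown, each against its assigned controls. MT2A changed more under shEZH2 in HCC70, MT1X more under shEZH2 in MDA-MB-468 and MT1H, untested, more under both. These exceptions depended on the assigned scrambled sets. With the sets exchanged, MT2A changed by 0.75 under shEED and 0.30 under shEZH2 in HCC70. MT1X then changed by 0.80 under shEED, against 0.62 under shEZH2 in MDA-MB-468. The MT1H mean was 5.35 in shEED cells and 5.26 in HCC70 shEZH2 cells. These differences between knockdowns were not tested.

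In MDA-MB-468 shEZH2 cells MT1E, MT1G, MT1X, MT1F and MT2A rose and MTF1 fell relative to scrambled controls. That made 5 genes higher and 1 lower, where 2.73% of clusters were called higher, 5.57% lower and 8.3% either way, with a median of 0.41 over the 8 genes and -0.021 over all. The MDA-MB-468 calls were sensitive to single arrays, and in both settings given next the calls over all tested clusters fell too. No called gene changed sign with 1 array left out. Without scrambled replicate 2, 0 of the 8 genes were called by limma, although 7 had an unadjusted p under 0.05, and without shEZH2 replicate 1, 2 were called. EZH2 cDNA gave 0 calls among the 8 genes by limma, where 0.909% of clusters were called higher, 0.068% lower and 0.977% either way, and 3 genes, MT1E, MT1G and SLC30A1, had an unadjusted p under 0.05. All 3 were lower in the cDNA arrays than in the plKO Puro arrays, and the median change over the 8 genes was -0.23 against 0.022 over all tested clusters.

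**Figure D2:**
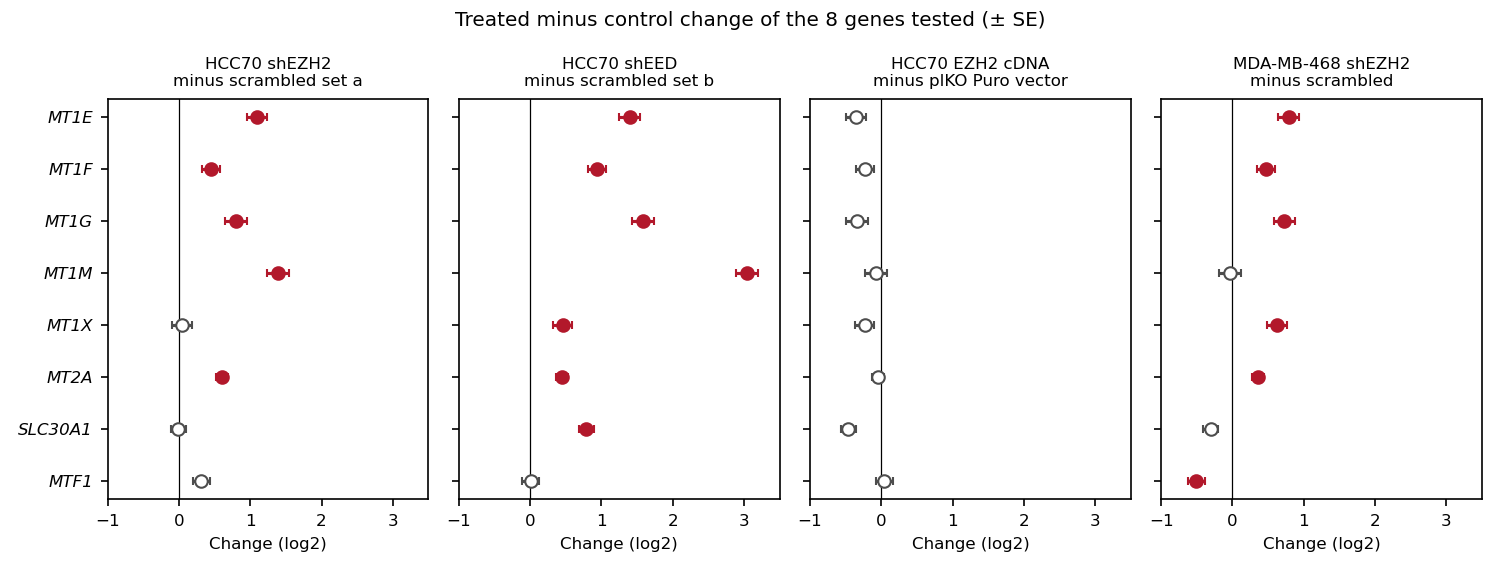
Treated minus control change (x axis, log2 units) of the 8 tested genes in the 4 treatments; points are limma estimates, bars are ± SE (n = 2 arrays per group) and filled points passed an adjusted p of 0.05. Every metallothionein point lies above 0 in the shEED panel, and no point is filled in the EZH2 cDNA panel.

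The levels of each gene follow, beginning with the sensor. With 2 arrays a group, the arrays of many clusters lay apart: 68.5% of tested clusters did not overlap under shEED (38.2% higher, 30.3% lower), 53.3% under shEZH2 in HCC70 (28.2% higher, 25.1% lower), 51.3% under shEZH2 in MDA-MB-468 (22.3% higher, 29% lower) and 39.4% with EZH2 cDNA (25.8% higher, 13.6% lower). Groups said to be apart or overlapping below are descriptions beside those shares. MTF1, the zinc-responsive activator of the other genes, read 8.57 and 8.51 in the HCC70 shEZH2 arrays, against 8.28 and 8.16 in the scrambled set a arrays, which did not overlap. MTF1 read 8.72 and 8.85 in the HCC70 shEED arrays, against 8.76 and 8.79 in the scrambled set b arrays, and here the 2 sets of values overlapped. Its change was 0.32 ± 0.12 (adjusted p = 0.123) under shEZH2 in HCC70, which misses the threshold. MTF1 read 8.69 and 8.67 in the EZH2 cDNA arrays, against 8.59 and 8.68 in the plKO Puro arrays, with a change of 0.045 ± 0.12 (adjusted p = 0.94). In the other line MTF1 read 9.01 and 8.87 in the MDA-MB-468 shEZH2 arrays, against 9.22 and 9.67 in the MDA-MB-468 scrambled arrays, and the fall was -0.51 ± 0.12 (adjusted p = 0.0291). That fall was not called without MDA-MB-468 scrambled replicate 2 (-0.28, adjusted p = 0.23), without shEZH2 replicate 1 (-0.58, adjusted p = 0.0599) or without shEZH2 replicate 2 (-0.43, adjusted p = 0.112), and over its 12 alternatives the adjusted p ran between 0.00351 and 0.233. The highest group means of MTF1 were those of MDA-MB-468, so the sensor's RNA ran opposite to most metallothioneins between the lines.

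MT2A, the most widely expressed metallothionein of human tissues, read 12.81 and 12.78 in the HCC70 shEZH2 arrays, against 12.24 and 12.14 in the scrambled set a arrays. MT2A read 12.99 and 12.88 in the HCC70 shEED arrays, against 12.45 and 12.53 in the scrambled set b arrays. The changes were 0.60 ± 0.081 (adjusted p = 0.000632) under shEZH2 and 0.44 ± 0.081 (adjusted p = 0.00333) under shEED. Fitted on the arrays of its comparison alone, the shEZH2 change of MT2A was not called, at 0.60 (adjusted p = 0.0594), and over its 16 alternatives the adjusted p ran between 0.000118 and 0.0594. MT2A read 12.71 and 12.58 in the MDA-MB-468 shEZH2 arrays, against 12.33 and 12.25 in the MDA-MB-468 scrambled arrays, without overlap, a rise of 0.36 ± 0.081 (adjusted p = 0.0221) that was not called without MDA-MB-468 scrambled replicate 2 (0.32, adjusted p = 0.175) or shEZH2 replicate 1 (0.29, adjusted p = 0.103); over its 14 alternatives the adjusted p ran between 0.00845 and 0.22. With EZH2 cDNA the arrays overlapped: MT2A read 12.28 and 12.18 in the EZH2 cDNA arrays, against 12.26 and 12.29 in the plKO Puro arrays, a change of -0.048 ± 0.081 (adjusted p = 0.903). MT2A varied least of the 8 tested genes, with group means between 12.19 and 12.94.

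MT1X, a broadly expressed MT1 isoform, read 11.35 and 11.14 in the HCC70 shEZH2 arrays, against 11.30 and 11.10 in the scrambled set a arrays, and the arrays overlapped. MT1X read 12.09 and 11.92 in the HCC70 shEED arrays, against 11.57 and 11.54 in the scrambled set b arrays, without overlap. The change was 0.041 ± 0.14 (adjusted p = 0.885) under shEZH2 and 0.46 ± 0.14 (adjusted p = 0.0455) under shEED. The shEED call of MT1X was lost on leaving out any 1 of the 4 arrays, with changes between 0.37 and 0.54, and over its 14 alternatives the adjusted p ran between 0.000846 and 0.249. In MDA-MB-468 the arrays were apart: MT1X read 10.80 and 10.63 in the MDA-MB-468 shEZH2 arrays, against 10.08 and 10.10 in the MDA-MB-468 scrambled arrays, a rise of 0.62 ± 0.14 (adjusted p = 0.0198). Leaving out either scrambled array or shEZH2 replicate 1 ended that call, with changes of 0.61, 0.64 and 0.54. Fitting the arrays of its comparison alone ended it too (adjusted p = 0.127). MT1X read 11.64 and 11.40 in the EZH2 cDNA arrays, against 11.56 and 11.95 in the plKO Puro arrays, with overlap and a change of -0.23 ± 0.14 (adjusted p = 0.625). The shEZH2 changes of the lines differed by -0.58 ± 0.19 (adjusted p = 0.0682) in MT1X, HCC70 minus MDA-MB-468, which misses the threshold. It passed in 5 of its 18 alternatives, with set b as the HCC70 control (-0.93, adjusted p = 0.00794), both sets (-0.76, adjusted p = 0.0191), quantile normalization (-0.64, adjusted p = 0.0374), 1-symbol clusters only (adjusted p = 0.0467) and an intensity trend (adjusted p = 0.0489), and over its 18 alternatives the adjusted p ran between 0.00794 and 0.196.

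MT1F, another zinc-binding MT1 isoform, read 10.93 and 10.60 in the HCC70 shEZH2 arrays, against 10.31 and 10.33 in the scrambled set a arrays, a rise of 0.45 ± 0.13 (adjusted p = 0.042) without overlap. Leaving out either set a array or shEZH2 replicate 1 ended this call, with changes of 0.43, 0.46 and 0.28. It was also lost with no floor (adjusted p = 0.0785) and with each array centred on its median (adjusted p = 0.0872). The arrays of its comparison alone (adjusted p = 0.18) and both scrambled sets as control (0.25, adjusted p = 0.14) did not give the call either. Under shEED the separation was wider. MT1F read 11.70 and 11.62 in the HCC70 shEED arrays, against 10.65 and 10.78 in the scrambled set b arrays, and the rise was 0.95 ± 0.13 (adjusted p = 0.000436). MT1F read 10.13 and 9.77 in the MDA-MB-468 shEZH2 arrays, against 9.52 and 9.44 in the MDA-MB-468 scrambled arrays, a rise of 0.47 ± 0.13 (adjusted p = 0.0417), which was lost without either scrambled array or without shEZH2 replicate 1 (changes of 0.51, 0.44 and 0.29). The MDA-MB-468 call was also lost with no floor (adjusted p = 0.0776), with each array centred on its median (adjusted p = 0.09) and on the arrays of its comparison alone (adjusted p = 0.217). The EZH2 cDNA arrays lay below their controls in this gene. MT1F read 10.40 and 10.30 in the EZH2 cDNA arrays, against 10.61 and 10.54 in the plKO Puro arrays, a change of -0.22 ± 0.13 (adjusted p = 0.602).

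MT1G, an MT1 isoform encoded just before MT1H, read 10.21 and 10.11 in the HCC70 shEZH2 arrays, against 9.44 and 9.27 in the scrambled set a arrays, a rise of 0.80 ± 0.15 (adjusted p = 0.0055). Without set a replicate 2 it missed the threshold at 0.72 (adjusted p = 0.0609), and over its 14 alternatives the adjusted p ran between 0.00176 and 0.0696. Its change under shEED was exceeded only by that of MT1M among the 8 tested genes. It read 11.52 and 11.17 in the HCC70 shEED arrays, against 9.66 and 9.86 in the scrambled set b arrays, a rise of 1.59 ± 0.15 (adjusted p = 3.57e-05). MT1G read 8.81 and 8.94 in the MDA-MB-468 shEZH2 arrays, against 8.34 and 7.95 in the MDA-MB-468 scrambled arrays, a rise of 0.73 ± 0.15 (adjusted p = 0.0158) that was not called without scrambled replicate 2 (0.53, adjusted p = 0.156) or without shEZH2 replicate 2 (0.66, adjusted p = 0.0611); over its 12 alternatives the adjusted p ran between 0.00615 and 0.156. With EZH2 cDNA, MT1G read 9.42 and 9.18 in the EZH2 cDNA arrays, against 9.61 and 9.67 in the plKO Puro arrays, apart and in the opposite direction, with a change of -0.34 ± 0.15 (adjusted p = 0.461).

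MT1E, a close relative of MT1M in the same gene row, read 8.23 and 8.40 in the HCC70 shEZH2 arrays, against 7.29 and 7.14 in the scrambled set a arrays, a rise of 1.10 ± 0.15 (adjusted p = 0.000566). MT1E read 8.74 and 8.73 in the HCC70 shEED arrays, against 7.19 and 7.49 in the scrambled set b arrays, a rise of 1.40 ± 0.15 (adjusted p = 7.13e-05). Neither call was lost in any of the 14 alternatives run for it. MT1E read 6.05 and 6.19 in the MDA-MB-468 shEZH2 arrays, against 5.55 and 5.10 in the MDA-MB-468 scrambled arrays, so that both control arrays lay below the floor and the rise of 0.79 ± 0.15 (adjusted p = 0.00888) may be understated. That call was lost without MDA-MB-468 scrambled replicate 2, at 0.56 (adjusted p = 0.0915), and over its 12 alternatives the adjusted p ran between 0.00302 and 0.146. Lower values again marked the cDNA arrays. MT1E read 7.10 and 6.99 in the EZH2 cDNA arrays, against 7.49 and 7.31 in the plKO Puro arrays, a change of -0.36 ± 0.15 (adjusted p = 0.41).

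MT1M, an MT1 isoform with a more restricted expression than MT2A, had the widest span of group means of all 9 genes, 5.16 log2 units. It read 7.82 and 7.58 in the HCC70 shEZH2 arrays, against 6.40 and 6.21 in the scrambled set a arrays, a rise of 1.39 ± 0.15 (adjusted p = 0.000149). It read 10.29 and 10.18 in the HCC70 shEED arrays, against 7.02 and 7.35 in the scrambled set b arrays, a rise of 3.05 ± 0.15 (adjusted p = 2.31e-07). Both calls held in all 14 alternatives run for each, and the shEED arrays lay far above every other group. In MDA-MB-468 all 4 arrays stayed below the floor, where a change may be understated or go unseen. MT1M read 5.20 and 4.95 in the MDA-MB-468 shEZH2 arrays, against 5.06 and 5.16 in the MDA-MB-468 scrambled arrays. The arrays overlapped, with a change of -0.036 ± 0.15 (adjusted p = 0.911). MT1M read 6.49 and 6.38 in the EZH2 cDNA arrays, against 6.32 and 6.71 in the plKO Puro arrays, also with overlap, and the change was -0.076 ± 0.15 (adjusted p = 0.917).

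MT1H, whose window held the most element matches of those scanned, was never above the floor. It read 5.27 and 5.25 in the HCC70 shEZH2 arrays, against 4.90 and 4.82 in the scrambled set a arrays. It read 5.49 and 5.22 in the HCC70 shEED arrays, against 5.04 and 5.03 in the scrambled set b arrays. It read 4.96 and 4.85 in the MDA-MB-468 shEZH2 arrays, against 4.67 and 4.47 in the MDA-MB-468 scrambled arrays. The differences were 0.40, 0.32 and 0.33, each with the arrays apart and higher, as were 28.2%, 38.2% and 22.3% of tested clusters in these comparisons, and with no test because signal at this level is not shown to be above background. MT1H read 4.93 and 4.86 in the EZH2 cDNA arrays, against 5.17 and 5.14 in the plKO Puro arrays, a difference of -0.26.

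SLC30A1, the exporter, did not follow the metallothioneins in every knockdown. It read 8.41 and 8.20 in the HCC70 shEZH2 arrays, against 8.33 and 8.31 in the scrambled set a arrays, with overlap and a change of -0.009 ± 0.10 (adjusted p = 0.97). It read 10.96 and 10.84 in the HCC70 shEED arrays, against 10.09 and 10.14 in the scrambled set b arrays, without overlap, a rise of 0.79 ± 0.10 (adjusted p = 0.000391) that held in all 14 alternatives. In MDA-MB-468 the exporter read 7.54 and 7.79 in the MDA-MB-468 shEZH2 arrays, against 8.05 and 7.89 in the MDA-MB-468 scrambled arrays, a change of -0.30 ± 0.10 (adjusted p = 0.0909). Leaving out 1 array moved it between -0.43 and -0.18, and without shEZH2 replicate 2 it was called, at -0.43 (adjusted p = 0.0469); over its 12 alternatives the adjusted p ran between 0.0469 and 0.376. SLC30A1 read 8.80 and 8.84 in the EZH2 cDNA arrays, against 9.23 and 9.33 in the plKO Puro arrays, apart and lower in the cDNA arrays by a change of -0.46 ± 0.10 (adjusted p = 0.0667). With only 1-symbol clusters in the test the cDNA difference passed the threshold, at -0.46 (adjusted p = 0.034), and over its 12 alternatives the adjusted p ran between 0.034 and 0.403.

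**Figure D3:**
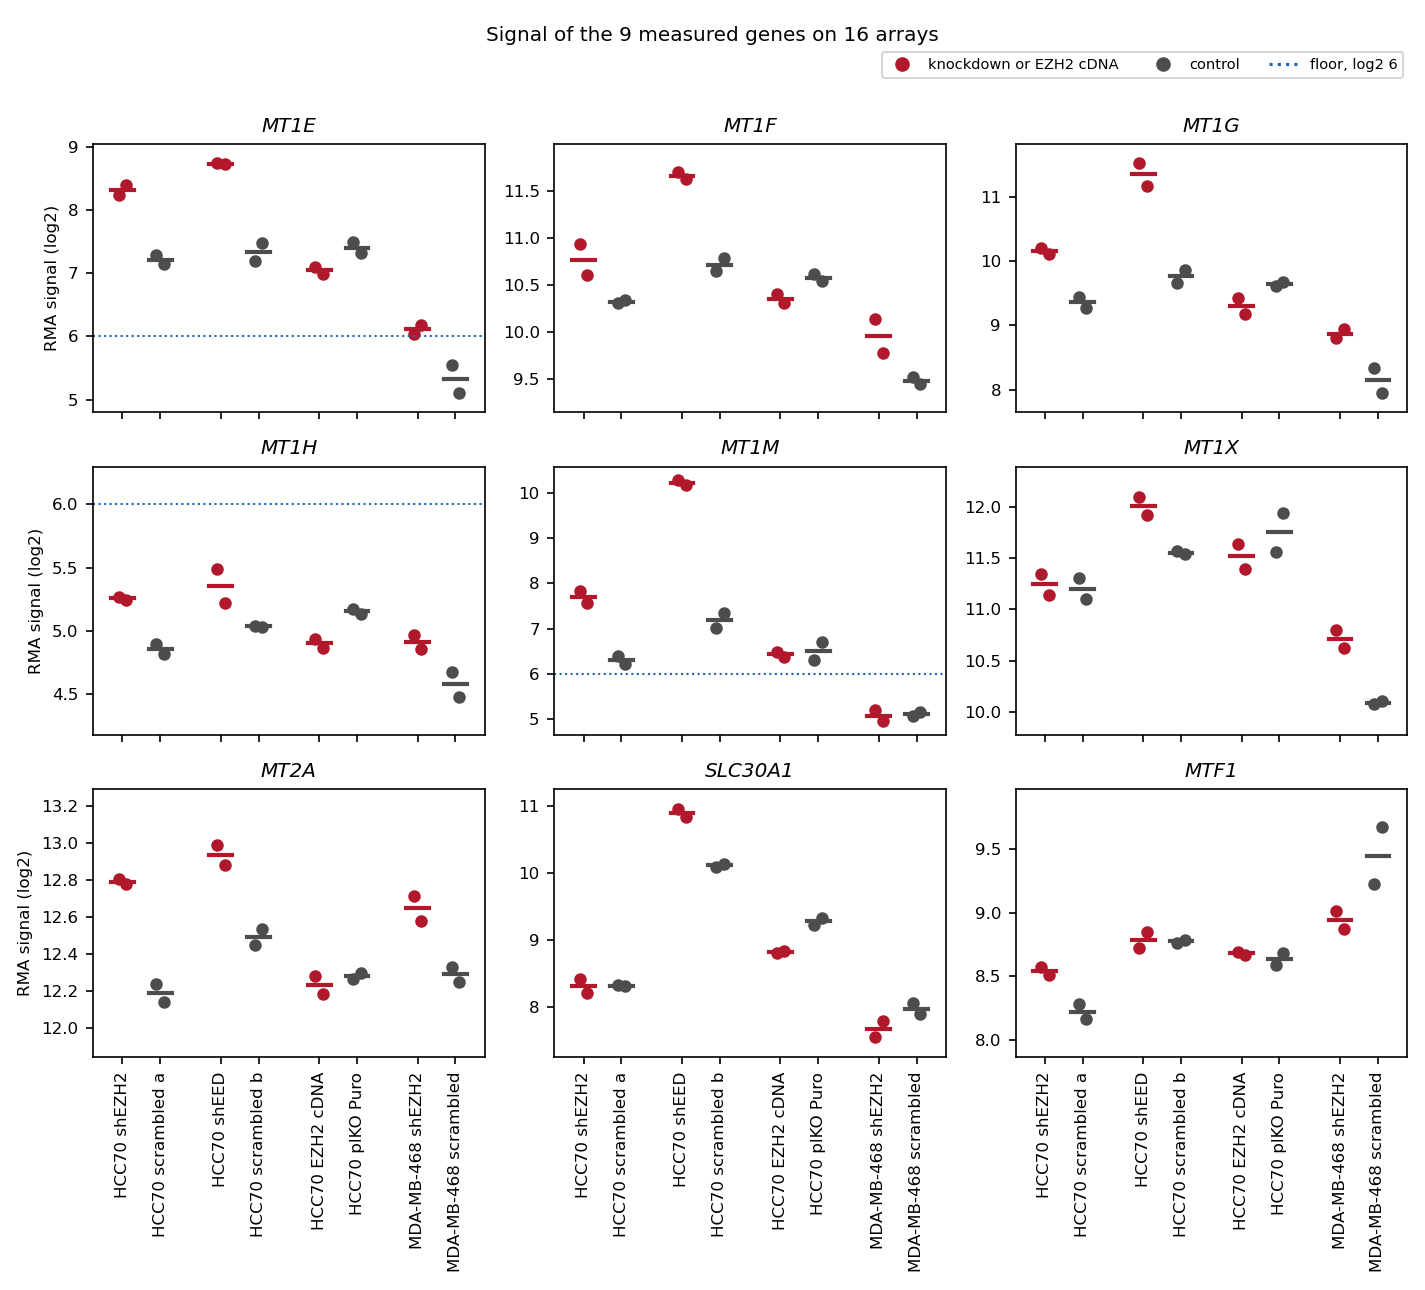
Log2 RMA signal (y axis) of the 9 measured genes on the 16 arrays, 1 panel per gene; dots are single arrays, bars are means of 2 arrays, red marks knockdown or EZH2 cDNA, grey marks controls, and the dotted line is the floor at log2 6. MT1M stands highest in the shEED arrays (10.29 and 10.18), and SLC30A1 differs between the 2 scrambled sets.

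Ordering the 8 groups by mean, HCC70 shEED was the highest group for all 7 measured metallothioneins and for SLC30A1. For MT1X its arrays overlapped those of the next group, plKO Puro (12.09 and 11.92, against 11.56 and 11.95), and for MT1H those of HCC70 shEZH2. HCC70 shEZH2 stood second for MT1E, MT1F, MT1G, MT1H, MT1M and MT2A, but its MT1F arrays overlapped those of set b. MDA-MB-468 scrambled cells were the lowest group for MT1E, MT1F, MT1G, MT1H and MT1X. For MT1M the 2 MDA-MB-468 groups shared the lowest place with overlapping arrays. MT2A departed from that order, since its lowest group was HCC70 set a, and its arrays there overlapped those of the cDNA group.

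The HCC70 scrambled sets themselves differed in these genes. In set b, 5 of the 8 genes were called higher than in set a and 0 lower, where 15.3% of clusters were called higher, 7.41% lower and 22.7% either way. SLC30A1 differed most, at 10.09 and 10.14 in set b, against 8.33 and 8.31 in set a, a difference of 1.80 ± 0.10 (adjusted p = 1e-06) or 3.48-fold. MT1M differed by 0.88 ± 0.15 (adjusted p = 0.002), MTF1 by 0.55 ± 0.12 (adjusted p = 0.00777), MT1F by 0.40 ± 0.13 (adjusted p = 0.0419) and MT2A by 0.30 ± 0.081 (adjusted p = 0.0195). Leaving out 1 array ended the call of MT1F in each of 4 cases, of MT2A in 3 (set a replicate 2 and either set b array) and of MTF1 in 2 (set a replicate 2 and set b replicate 2). With 1 array left out the difference lay between 0.33 and 0.46 for MT1F, 0.25 and 0.35 for MT2A, and 0.49 and 0.61 for MTF1. The MT1F call was also lost with no floor (adjusted p = 0.0785) and with quantile normalization (adjusted p = 0.0501). MT1E, in contrast, differed by 0.12 ± 0.15 (adjusted p = 0.574) between the sets. Scan dates were not used here, so whether the sets are batches was not tested.

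The choice of control therefore moved several values. Against set b, the shEZH2 change in HCC70 was 0.98 (adjusted p = 0.000519) for MT1E, 0.52 (adjusted p = 0.0273) for MT1M and 0.30 (adjusted p = 0.0174) for MT2A, which stayed called, where 11.3% of clusters were called higher, 15.4% lower and 26.7% either way. MT1G, at 0.40 (adjusted p = 0.0696), and MT1F, at 0.049 (adjusted p = 0.799), no longer passed. For SLC30A1 the change became -1.81 (adjusted p = 3.8e-07), so that the exporter's change under shEZH2 depended on the control set. For MT1E over its 14 alternatives the adjusted p ran between 0.000111 and 0.0224, for MT1M over its 14 alternatives the adjusted p ran between 2.08e-05 and 0.0273, and for SLC30A1 over its 14 alternatives the adjusted p ran between 3.8e-07 and 0.999. Relative to set a, all 8 genes were called higher in shEED cells, where 22.8% of clusters were called higher, 13.9% lower and 36.7% either way, with 2.59 (adjusted p = 2.56e-08) for SLC30A1 and 3.92 (adjusted p = 2.56e-08) for MT1M. MTF1 then differed by 0.56 (adjusted p = 0.00406), and over its 14 alternatives the adjusted p ran between 0.00406 and 0.995. MT1E, MT1M and MT2A were called higher under both knockdowns whichever set was used.

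**Figure D4:**
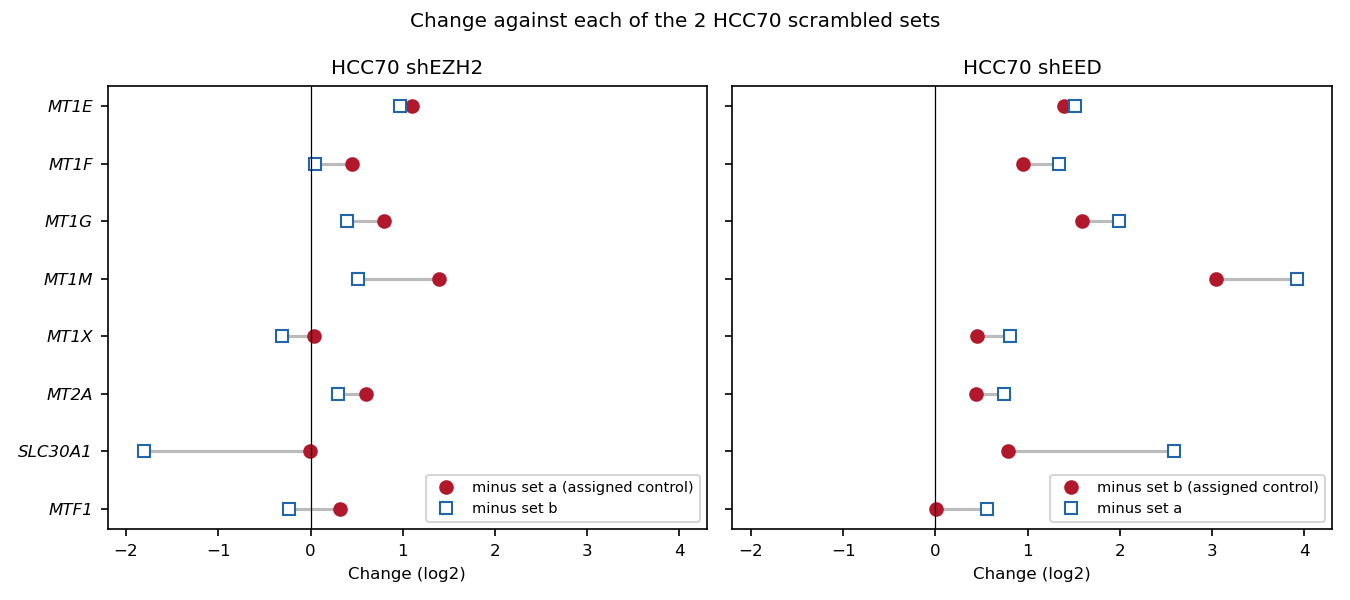
Change (x axis, log2 units) of the 8 tested genes in HCC70 shEZH2 (left) and shEED (right) cells against each of the 2 scrambled sets; filled circles use the assigned set and open squares the other. The SLC30A1 pair is the farthest apart, -0.009 and -1.81 for shEZH2 and 0.79 and 2.59 for shEED.

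Between the lines, MDA-MB-468 scrambled cells had 6 of the 8 genes lower and 1 higher than HCC70 scrambled cells of both sets, where 32.1% of clusters were called lower, 37.1% higher and 69.2% either way. MT1E was lowest in relative terms, with a difference of -1.95 ± 0.13 (adjusted p = 5.42e-08). MT1M followed at -1.64 ± 0.13 (adjusted p = 4.04e-07), with its MDA-MB-468 signal below the floor, which it passed through HCC70 arrays alone. SLC30A1 differed by -1.25 ± 0.089 (adjusted p = 1.4e-07) and MTF1, in the other direction, by 0.95 ± 0.11 (adjusted p = 7.04e-06). MT2A was the exception, with a difference of -0.051 ± 0.07 (adjusted p = 0.534). Every call of this comparison held in the 14 alternatives run for each gene, but none of them used 1 HCC70 scrambled set alone. The SLC30A1 mean was 7.968 in MDA-MB-468 scrambled cells, against 8.317 in set a and 10.115 in set b. The size of its difference between the lines therefore depended on the set.

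The difference of the 2 shEZH2 changes, HCC70 minus MDA-MB-468, was called in MTF1 and MT1M of the 8 genes, where 8.97% of clusters were called higher, 4.27% lower and 13.2% either way. For MT1M the HCC70 change was 1.39 and the MDA-MB-468 change -0.036, a difference of 1.43 ± 0.22 (adjusted p = 0.00211). MT1M passed the floor through HCC70 arrays alone, and a change in MDA-MB-468 may have gone unseen at that signal. Its call therefore does not show an unlike response of the lines. MTF1 had changes of 0.32 in HCC70 and -0.51 in MDA-MB-468, a difference of 0.82 ± 0.17 (adjusted p = 0.0114). Taking set b as the HCC70 control gave 0.55 (adjusted p = 0.106) for MT1M and 0.27 (adjusted p = 0.32) for MTF1, and without set a replicate 2 MTF1 gave 0.76 (adjusted p = 0.0503). For MT1M over its 18 alternatives the adjusted p ran between 0.000542 and 0.106, and for MTF1 over its 18 alternatives the adjusted p ran between 0.00111 and 0.32. The remaining 6 genes missed the threshold, MT1X with the exceptions given above and SLC30A1 at 0.29 ± 0.15 (adjusted p = 0.201), which became -1.50 (adjusted p = 6.12e-05) with set b; over its 18 alternatives the adjusted p ran between 6.12e-05 and 0.466. MT1G and MT1E, which rose in both lines, differed by 0.074 ± 0.21 (adjusted p = 0.849) and 0.31 ± 0.21 (adjusted p = 0.341).

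Metallothionein transcripts are alike in sequence, so a cluster may take up signal from a relative, and the probe sequences were not used here. MT2A shows the limit. It had 3 clusters with its symbol alone, and the one used here and a second share all 6 of their annotated accessions, 4 of which the third carries too. The clusters with neighbouring numbers are annotated to chromosome 4 for the one used (5 of 6), while those beside the third are annotated to chromosome 16 (4 of 4), where RefSeq places MT2A. The third cluster changed by 0.60 under shEZH2 in HCC70, 0.44 under shEED and 0.48 under shEZH2 in MDA-MB-468, beside 0.60, 0.44 and 0.36 for the one used, and was called each time. Between the scrambled sets it differed by 0.033 (adjusted p = 0.839), so the MT2A difference there held only for the other clusters; over its 14 alternatives the adjusted p ran between 0.00698 and 0.839. Other values show clusters that moved unequally on the same arrays. Under shEED, MT1M changed by 3.05 and MT1X by 0.46. How much of any one change comes from a relative was not tested.

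Further members of the family were on the arrays, several at signals below the floor in some groups. Over all tested clusters, 6.63% were called higher and 7.53% lower under shEED. The shares were 7.3% and 4.06% under shEZH2 in HCC70, and 2.73% and 5.57% in MDA-MB-468. Of 6 further metallothioneins tested, 2 were higher under shEED, 1 under shEZH2 in HCC70 and 2 under shEZH2 in MDA-MB-468, with 0 lower, MT1JP included each time. MT1JP, a pseudogene between MT1M and MT1A, passed the floor only through its 2 shEED arrays, so its calls count as no support. Its mean was 6.40 in the HCC70 shEED arrays against 5.66 in the scrambled set b arrays, 5.84 in the HCC70 shEZH2 arrays against 5.42 in the scrambled set a arrays and 5.62 in the MDA-MB-468 shEZH2 arrays against 5.06 in the MDA-MB-468 scrambled arrays, the last 2 pairs wholly below the floor, and the differences were 0.75, 0.42 and 0.56. MT1DP, also a pseudogene, rose by 0.39 ± 0.12 (adjusted p = 0.0474) under shEED, and MT1HL1, which RefSeq places on chromosome 1, by 0.57 ± 0.13 (adjusted p = 0.025) in MDA-MB-468, with a mean of 6.33 in the MDA-MB-468 shEZH2 arrays against 5.77 in the MDA-MB-468 scrambled arrays. The medians of the 6 were 0.36 under shEED, 0.30 under shEZH2 in HCC70 and 0.35 in MDA-MB-468. With EZH2 cDNA 0 of the 6 were called by limma, where 0.977% of all clusters were called either way, and 1 had an unadjusted p under 0.05. Genes flanking the metallothioneins on chromosome 16 were set beside them. Of 11 tested, 0 were higher under shEED by limma (1 at an unadjusted p under 0.05) and 2 were lower, CPNE2 by -0.49 ± 0.086 (adjusted p = 0.00299) and BBS2 by -0.31 ± 0.08 (adjusted p = 0.0249). GNAO1, a G protein subunit, was the 1 called under shEZH2 in HCC70, at 0.71 ± 0.16 (adjusted p = 0.0161), with both means below the floor. In MDA-MB-468 shEZH2 cells 0 of the 11 were called, and 2, both lower, had an unadjusted p under 0.05.

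Other zinc transporters were counted beside the shares of all tested clusters called either way, 11.4% under shEZH2 in HCC70, 14.2% under shEED and 8.3% in MDA-MB-468. Among 5 tested exporters of the SLC30 family, SLC30A4 alone was called, higher by 0.61 ± 0.14 (adjusted p = 0.0167) under shEZH2 in HCC70. Its mean was 6.395 in those arrays against 5.785, below the floor, in scrambled set a. Under shEED 0 of the 5 were called by limma and 1 had an unadjusted p under 0.05, and in MDA-MB-468 shEZH2 cells 0 were called and 0 had such a p. Of 12 importers of the SLC39 family, which bring zinc into the cytosol, 1 was higher and 3 lower under shEZH2 in HCC70 (7.3% and 4.06% of all clusters), where SLC39A2 changed by -0.83 ± 0.11 (adjusted p = 0.000526) and SLC39A8 by -0.50 ± 0.084 (adjusted p = 0.00306). Under shEED 2 importers were higher (6.63% of all clusters), led by SLC39A10 at 0.53 ± 0.12 (adjusted p = 0.0133), and 2 lower (7.53%), led by SLC39A11 at -0.56 ± 0.083 (adjusted p = 0.000922). SLC39A11 was lower in HCC70 shEZH2 cells, with a change of -0.31 ± 0.083 (adjusted p = 0.0337), and higher in MDA-MB-468 shEZH2 cells, by 0.38 ± 0.083 (adjusted p = 0.0195), and the 2 changes differed by -0.69 ± 0.12 (adjusted p = 0.00416). The median change of the importers was -0.16 under shEZH2 in HCC70, -0.041 under shEED and 0.14 in MDA-MB-468.

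Genes that handle copper, and genes that answer oxidants, other stress or steroid hormones, were read against the same background: 6.63% of all tested clusters were called higher and 7.53% lower under shEED, 7.3% and 4.06% under shEZH2 in HCC70, and 2.73% and 5.57% in MDA-MB-468. Of 11 copper-handling genes, 0 were higher under shEED by limma (0 at an unadjusted p under 0.05) and 4 lower, among them the metalloreductase STEAP2 at -1.32 ± 0.12 (adjusted p = 3.18e-05). Under shEZH2 1 copper gene was lower in HCC70 and 2 in MDA-MB-468. Of 12 stress genes, 4 were higher and 2 lower under shEED. The cystine carrier SLC7A11 changed by 1.00 ± 0.099 (adjusted p = 5.1e-05), the oxidant defence gene SRXN1 by 0.84 ± 0.091 (adjusted p = 1e-04), HMOX1, the haem-degrading enzyme, by 0.57 ± 0.12 (adjusted p = 0.00926) and the quinone reductase gene NQO1 by 0.34 ± 0.069 (adjusted p = 0.00665). In HCC70 shEZH2 cells 0 of those 12 were called by limma, with 3 higher and 4 lower at an unadjusted p under 0.05, and in MDA-MB-468 shEZH2 cells 4 were lower, NQO1 among them at -0.43 ± 0.069 (adjusted p = 0.00471). Of 7 glucocorticoid-responsive genes, 1 was higher and 1 lower under each HCC70 knockdown, and NR3C1, the receptor gene itself, rose by 0.33 ± 0.085 (adjusted p = 0.0228) under shEED. In MDA-MB-468 0 of the 7 were called and 1 had an unadjusted p under 0.05. With EZH2 cDNA the phosphatase gene DUSP1 was the single call in all 7 lists, where 0.977% of clusters were called either way, at 1.05 ± 0.15 (adjusted p = 0.00664). SLC7A11, SRXN1 and NR3C1 were also higher in scrambled set b than in set a, by 0.91, 0.47 and 0.45, and their part in the metallothionein values was not tested.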

How the data were processed

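RNA of HCC70 and MDA-MB-468 cells was hybridised to 16 arrays (Affymetrix Human Gene ST). Deposited log2 signals, 1 per transcript cluster and array, come from Affymetrix Expression Console (RMA), per the submitters' processing notes; versions and the clusters' genome build: not given in the sources used here. RMA subtracts background and equalises distributions, which understates changes of dim clusters. Symbols came from the platform annotation, which can be old: of 33297 clusters 19460 had 1 symbol, 1754 several and 12083 none, and 19429 of those with 1 symbol were found in RefSeq's gene table (GRCh38.p14), used for names and gene positions. Clusters with 2 of 16 arrays at log2 6 or above were tested (16175). The fit of 8 group means used limma 3.58.1 (lmFit, eBayes; R 4.3.3) on all arrays, with 8 residual degrees of freedom, two-sided, and Benjamini-Hochberg adjustment within each comparison, and was tested on simulated data. Arrays carry no read depth, and their number limits the precision. The genes, the 7 accompanying lists and the comparisons were chosen with earlier results of these data known. All 10 genes are named, and from each list and comparison at most the 4 called genes of largest change. Alternatives covered the floor, normalization, variance trend, control set, arrays fitted, replicate block, MT2A cluster and each array left out.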

Additional observations from a re-analysis of the deposited data

Results flagged for a closer look

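The difference of the shEZH2 changes, HCC70 minus MDA-MB-468, passed its own test in 2 genes (limma, Benjamini-Hochberg). MT1M had changes of 1.39 in HCC70 and -0.036 in MDA-MB-468, a difference of 1.43 ± 0.22 (adjusted p = 0.00211); both MDA-MB-468 groups lay below log2 6, so no unlike response of the lines can be read from it. MTF1 had changes of 0.32 in HCC70 and -0.51 in MDA-MB-468, a difference of 0.82 ± 0.17 (adjusted p = 0.0114). With set b as the HCC70 control the differences were 0.55 and 0.27, and neither passed.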

How the results depend on the processing

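Every alternative was recomputed by limma, 1 change at a time. Over single genes, 468 values kept direction and call outside the tests that left out 1 array, 25 lost the call, 12 gained it and 12 changed sign. The 468 include the values of MT1H with no floor, which had no call in the main fit to keep. Counts of called genes among the 8 moved as follows. With only the arrays of a comparison, 3 (shEZH2 in HCC70), 0 (MDA-MB-468, 6 at an unadjusted p under 0.05) and 1 (difference of the shEZH2 changes, HCC70 minus MDA-MB-468) were called, against 5, 6 and 2 with all 16. With both scrambled sets as control the difference of the shEZH2 changes gave 4, and with 1-symbol clusters only EZH2 cDNA gave 1. Leaving out 1 array gave 3 to 5 called genes for shEZH2 in HCC70, 0 to 5 in MDA-MB-468, 6 to 6 for shEED, 0 to 0 for EZH2 cDNA (1 to 3 at an unadjusted p under 0.05), 2 to 4 between scrambled sets, 1 to 2 for the difference of the shEZH2 changes and 7 to 7 between scrambled cells of the 2 lines.

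Signs turned where the change was near 0 or the control set was exchanged. Against set b, shEZH2 in HCC70 gave -0.31 for MT1X and -0.24 for MTF1, and both sets gave -0.13 for MT1X. The difference of the shEZH2 changes gave, against set b, -0.33 for MT1G, -0.058 for MT2A and -1.50 for SLC30A1, and against both sets -0.13 for MT1G and -0.61 for SLC30A1. Quantile normalization gave -0.006 for MTF1 under shEED and -0.02 for the MT1G difference of the shEZH2 changes, where median centring gave 0.013 for MT1F. The third MT2A cluster gave 0.007 between scrambled cells of the 2 lines. With 1 array left out, signs turned within these ranges: under shEZH2 in HCC70 MT1X -0.063 to 0.15 and SLC30A1 -0.11 to 0.097; in MDA-MB-468 MT1M -0.16 to 0.086; under shEED MTF1 -0.056 to 0.07; with EZH2 cDNA MT1M -0.27 to 0.12 and MTF1 -0.004 to 0.094; between scrambled sets MT1E -0.025 to 0.27; and in the difference of the shEZH2 changes MT1F -0.21 to 0.15 and MT1G -0.12 to 0.27. The cause was not tested.

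Same-numbered arrays did not deviate together across clusters (correlations 0.077, -0.023, -0.002 and 0.002). Such values cannot show whether same-numbered arrays were prepared together, which was not stated. With a replicate block 5, 6, 7 and 0 genes were called in the 4 treatments, as without it. Over all tested clusters, 1837, 1343, 2290 and 158 were called for shEZH2 in HCC70, shEZH2 in MDA-MB-468, shEED and EZH2 cDNA, 3677 between scrambled sets and 2141 for the difference of the shEZH2 changes. With only a comparison's arrays these were 276, 21, 4439, 0, 6269 and 500, where fewer degrees of freedom remained. Exchanging the scrambled set gave 4325 for shEZH2 in HCC70 and 5940 for shEED, and both sets gave 3048 and 4465. No floor gave 848 in MDA-MB-468, and no floor or median centring 88 for EZH2 cDNA. Leaving out 1 array gave 688 to 1977, 231 to 1552, 1013 to 1128, 14 to 97, 1604 to 2040 and 921 to 2633. With no floor MT1H had adjusted p-values of 0.0419, 0.0924 and 0.101 for shEZH2 in HCC70, shEED and shEZH2 in MDA-MB-468. Array number and signal below log2 6 limit MT1H and MT1M in MDA-MB-468.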

Other observations

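GRIK3, AKR1E2, ABL1, PDE4D and TNFRSF11B had the group means most like the average of the 6 tested metallothioneins among 4130 tested 1-symbol clusters that spanned at least 1 log2 unit. GRIK3, a glutamate receptor subunit gene, had r = 0.961 over the 8 group means and 0.938 over the 6 HCC70 groups. AKR1E2, an aldo-keto reductase gene, had 0.96 and 0.933. The tyrosine kinase gene ABL1 had 0.956 and 0.904, the phosphodiesterase gene PDE4D 0.956 and 0.918, and TNFRSF11B, which encodes osteoprotegerin, 0.952 and 0.907. SLC30A1 reached 0.807 over 8 groups and 0.71 over 6. MTF1 had -0.466 over 8 groups and 0.504 over 6, so its sign turned when MDA-MB-468 was left out. PDE4D and TNFRSF11B had a group mean of log2 6 or above only in HCC70 shEED cells (6.18 and 6.04). The metallothionein average was also highest there, so the likeness of these genes counts as no support. GRIK3 means lay below log2 6 in scrambled set a (5.71) and in both MDA-MB-468 groups (5.06 and 5.08). The points share arrays and control groups and fall into 2 lines, so these values are descriptions.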
